A study of Schizosaccharomyces pombe with 6 samples.

Results

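Proteins that meet the polypeptide as it leaves the ribosome, or that sit on the ribosome beside it, were followed through 8 genes of fission yeast (Schizosaccharomyces pombe): egd2, btf3, sks2, zuo1, cpc2, tma19, oga1 and mep33. The genes were chosen by standard name, as the nascent polypeptide-associated complex, the ribosome-bound Hsp70 and Hsp40 pair, RACK1, TCTP, Oga1 and Mep33. All 8 were found, of 6952 genes in the count table, and all 8 passed the filter on low counts, of 5823 genes tested. RNA came from cultures on day 6 of chronological ageing, when cells no longer divide, in 3 biological replicates per group. The aal1-pOE cells overexpressed the long non-coding RNA aal1, carried on a plasmid behind P41nmt1, a promoter that thiamine shuts off. The evc cells carried an empty vector. Both groups had the 972h-/leu1-32 background with no labelled change of the chromosomal aal1 gene, and both were aged in EMMG, a minimal medium, to the same day. The copy number of the plasmid, and whether the 3 cultures of a group came from 1 transformant, were not given in the sources used here. P-values therefore measure the spread between these cultures. The comparison asks which transcripts differ in stationary cells that carry an excess of aal1.

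As a polypeptide emerges from the exit tunnel of the ribosome, the nascent polypeptide-associated complex (NAC) and a ribosome-bound Hsp70 with its Hsp40 partner are among the first proteins to bind it. They keep the chain from misfolding and help to sort it to its compartment. Other proteins dock on the ribosome itself, and one of them, RACK1, is a scaffold for signalling proteins on the small subunit. In yeasts the genes of several such factors are regulated together with those of the ribosomal proteins, whose transcripts make up a large part of the mRNA of growing cells.

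In the libraries as a whole, totals lay between 6130047 and 13164975 counts in the aal1-pOE cultures, against between 5839863 and 6977373 counts in evc. Transcripts of 137 cytosolic ribosomal protein genes took 2.74% to 3.80% of the counts in the aal1-pOE cultures, against 6.79% to 11.4% in evc. The 8 genes took 0.313% to 0.504% in aal1-pOE and 0.586% to 0.869% in evc. The composition of the libraries thus differed between the groups, and the scaling factors of the TMM method (trimmed mean of M values) were 1.04 to 1.80 in aal1-pOE and 0.763 to 0.850 in evc. The largest factor belonged to aal1-pOE replicate 2. Over all genes the log2 fold change had a median of 0.08 with TMM scaling and of 0.80 with library totals alone. Values below are CPM (counts of a gene per 1000000 counts of its library) scaled by TMM unless library totals are named. The aal1 RNA was counted 54, 141 and 58 times in aal1-pOE and 4, 2 and 4 times in evc. No other cell type is expected in a yeast culture. Summed TMM-scaled CPM of 8 dividing-cell genes was 598 to 806 in aal1-pOE and 684 to 725 in evc. On library totals the sum was 759 to 1073 in aal1-pOE and 543 to 581 in evc, without overlap. On that scale 47.2% of all genes tested, taken singly, also lay higher in aal1-pOE without overlap. For 7 mating and meiosis genes the TMM-scaled sum was 457 to 679 in aal1-pOE and 753 to 1111 in evc, without overlap. With TMM scaling 19.1% of all genes, taken singly, lay lower in aal1-pOE without overlap. With library totals the sum of the 7 was 473 to 1219 in aal1-pOE and 640 to 857 in evc. The TMM-scaled sum followed ste11, which alone had 251.9, 331.1 and 228.6 CPM in aal1-pOE, against 587.6, 830.4 and 974.8 CPM in evc. The median log2 fold change of the 7 genes was 0.38, and 3 of the 7 were below 0, so the sum does not give the direction of the list. In either list 0 genes were at 0. Their part in the results below was not tested.

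Of the 8 transcripts, 5 were lower in aal1-pOE than in evc at an adjusted p of at most 0.05 in edgeR's quasi-likelihood test, namely egd2, btf3, cpc2, tma19 and mep33. Over all genes tested 4.64% were called lower and 1.36% higher. The other 3, sks2, zuo1 and oga1, were not called, and 0 of the 8 were called higher. The median log2 fold change of the 8 was -1.53, and all 8 values were below 0. The groups did not overlap for any of the 8 genes, with every aal1-pOE value below every evc value, as was so for 19.1% of all genes. In bulk RNA, fewer cells that make a transcript and less of it per cell cannot be told apart.

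**Figure D1:**
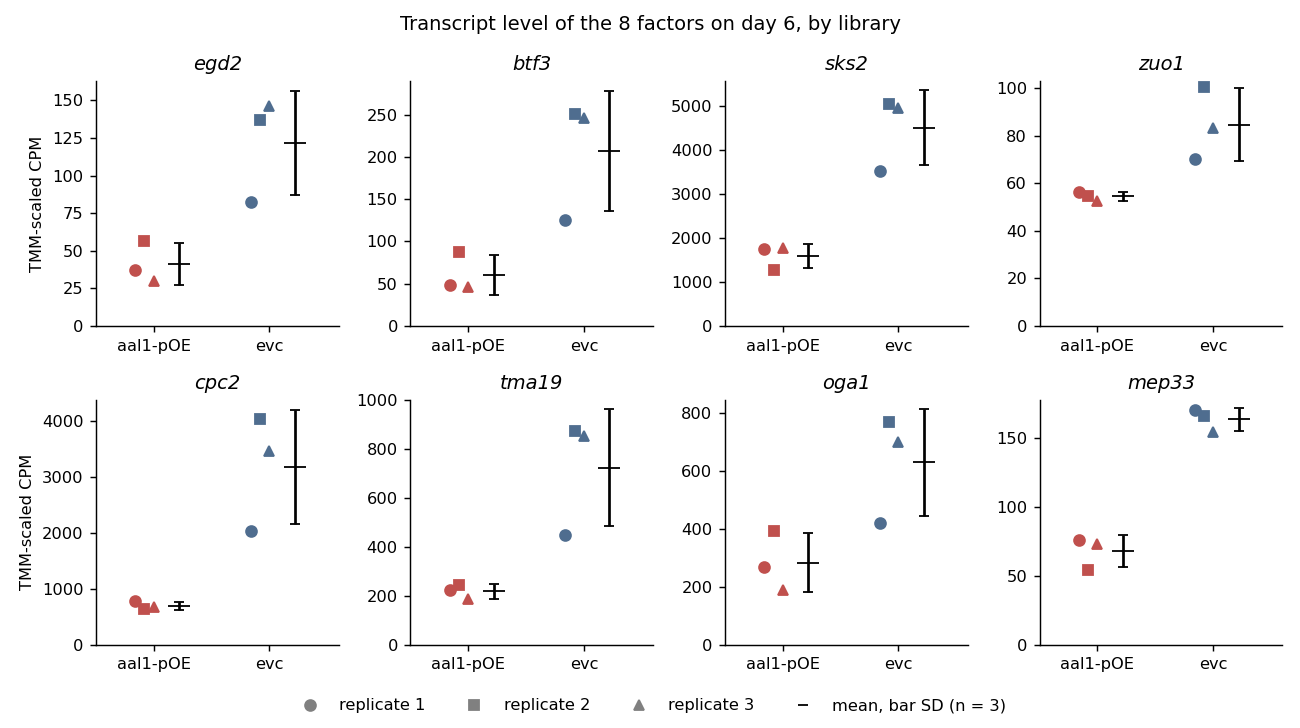
Level of each of the 8 transcripts in each library, in TMM-scaled CPM on axes that start at 0, with aal1-pOE left of evc; points are replicates, and the mark with its bar gives the mean and SD (n = 3). The 3 aal1-pOE values lie below the 3 evc values for every gene, with the widest gap, as a ratio, for cpc2 and the narrowest for oga1.

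The promoters of 4 of the 8 genes held the HomolD box, CAGTCACA, a motif known from the promoters of fission yeast ribosomal protein genes. These 4 windows are shown because the box is what these genes have in common with most ribosomal protein genes. Each is 30 bases on the strand of its gene, with the box in capitals. In sks2 and tma19 the box reads in the opposite direction, as TGTGACTG. Sequences and coordinates are those of RefSeq assembly ASM294v3.
btf3 (chromosome I, 4861299 to 4861328): aagtatgggagCAGTCACAcatttcggtac
sks2 (chromosome II, 1106336 to 1106365): tgtatattattTGTGACTGctgatactgtt
cpc2 (chromosome I, 2439450 to 2439479): aagttcaaagaCAGTCACAgtccatataga
tma19 (chromosome I, 3810080 to 3810109): ctgccctaaacTGTGACTGctttatctcat
The box began at -53 in btf3, -49 in sks2, -50 in cpc2 and -51 in tma19, counted in bases from the annotated start of the gene. Among ribosomal protein genes the 91 matches had a median position of -51, with quartiles at -57 and -47. The search took exact letters on both strands, from 250 bases before to 50 bases after the start. It found HomolD in 2.68% of the windows of 5112 protein-coding genes, in 50.0% of the 8 and in 63.5% of the ribosomal protein genes. The HomolE box, which often accompanies it, was in 1.25% of all windows, in 29.9% of those of ribosomal protein genes and in 0 of the 8. HomolD was not found in the windows of egd2, zuo1, oga1 and mep33. HomolD did not follow the pairs that work together, since of the NAC genes btf3 had it and egd2 did not, and of the Hsp70 and Hsp40 pair sks2 had it and zuo1 did not. The 4 genes with the box had log2 fold changes between -2.19 and -1.50 (median -1.75), and the 4 without it between -1.55 and -0.63 (median -1.21). These ranges overlap, at sks2 with the box and egd2 without it. A match is a description of the letters, and binding was not measured.

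The NAC is a pair of an alpha and a beta subunit bound near the exit tunnel. Both transcripts fell in aal1-pOE. The alpha subunit gene egd2 (SPBC25H2.05, chromosome II, 3274928 to 3275522, minus strand, 1 exon) had 37.2, 56.8 and 30.0 CPM in the 3 aal1-pOE cultures, numbered 1 to 3, against 82.3, 136.9 and 146.3 CPM in the 3 evc cultures. Among the aal1-pOE cultures replicate 2 stood highest, and among the evc cultures replicate 1 stood lowest. The means were 41.3 ± 13.9 CPM in the aal1-pOE cultures, against 121.8 ± 34.5 CPM in the evc cultures (SD, n = 3 each). The log2 fold change was -1.55 ± 0.31 (SE, edgeR adjusted p = 0.0195), with a 95% interval from -2.25 to -0.85. The beta subunit gene btf3 (SPAC4F10.14c, chromosome I, 4860536 to 4861264, minus strand, 2 exons) had 48.1, 87.3 and 45.9 CPM in the aal1-pOE cultures, against 125.7, 250.2 and 245.5 CPM in evc. The same libraries stood at the inner edges of the groups as for egd2. The means were 60.4 ± 23.3 CPM in the aal1-pOE cultures, against 207.1 ± 70.6 CPM in the evc cultures (SD, n = 3 each), and the log2 fold change was -1.77 ± 0.35 (SE, edgeR adjusted p = 0.0191).

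The balance of the NAC subunit transcripts was read within each library, where scaling cannot change it. There were 0.774, 0.650 and 0.653 egd2 counts per btf3 count in aal1-pOE, and 0.655, 0.547 and 0.596 in evc. The groups overlapped, and the ratio was 1.15 times as high in aal1-pOE (log2 difference 0.21, exact permutation test, two-sided, p = 0.3, adjusted p = 0.333 over 10 ratios). With 3 libraries against 3 this exact permutation test cannot go below p = 0.1.

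Sks2 is the ribosome-bound Hsp70, and Zuo1 (zuotin) is the ribosome-bound Hsp40 that stimulates it. Neither transcript was called, though sks2 was close to the threshold. The gene sks2 (SPBC1709.05, chromosome II, 1106396 to 1108511, plus strand, 1 exon) had 1745, 1281 and 1777 CPM in the aal1-pOE cultures, against 3534, 5058 and 4968 CPM in evc. Its highest aal1-pOE value was below its lowest evc value, and aal1-pOE replicate 2 was here the lowest of its group. The means were 1601 ± 278 CPM in the aal1-pOE cultures, against 4520 ± 855 CPM in the evc cultures (SD, n = 3 each), with a log2 fold change of -1.50 ± 0.40 (SE, 95% interval -2.40 to -0.60, edgeR adjusted p = 0.0588). With library totals the log2 fold change was -0.83, and the gene was then called (edgeR adjusted p = 0.0499). The gene zuo1 (SPBC1778.01c, chromosome II, 3094849 to 3096342, minus strand, 1 exon) had 56.4, 54.6 and 52.8 CPM in the aal1-pOE cultures, against 70.2, 100.7 and 83.5 CPM in evc. The aal1-pOE values were nearly equal. The means were 54.6 ± 1.8 CPM in the aal1-pOE cultures, against 84.8 ± 15.3 CPM in the evc cultures (SD, n = 3 each), and the log2 fold change was -0.63 ± 0.21 (SE, 95% interval -1.10 to -0.16, edgeR adjusted p = 0.0967). With library totals it was 0.09, so the direction for zuo1 depends on the scaling.

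There were 0.0323, 0.0426 and 0.0297 zuo1 counts per sks2 count in aal1-pOE, and 0.0199, 0.0199 and 0.0168 in evc. The groups did not overlap, and the ratio was 1.83 times as high in aal1-pOE (log2 difference 0.87). But sks2 was itself lower there (log2 fold change -1.50), against a median of 0.08 for all genes. A typical gene thus also rises over sks2, and zuo1, at -0.63, lay below that median. The share of all genes that separate over sks2 was not computed. The exact permutation test, two-sided, gave p = 0.1, the smallest that 3 against 3 libraries can give, and an adjusted p = 0.143 over 10 ratios. The third component of this system is Ssz1, a Hsp70-like protein that forms a stable complex with zuotin. Its gene ssz1 had 514.6, 158.5 and 499.4 CPM in the aal1-pOE cultures, against 845.0, 1035 and 960.5 CPM in evc. In replicate 2 of aal1-pOE it was far below the other libraries of the group. The log2 fold change of ssz1 was -1.28 ± 0.44 (SE, edgeR adjusted p = 0.105), which was not called.

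**Figure D2:**
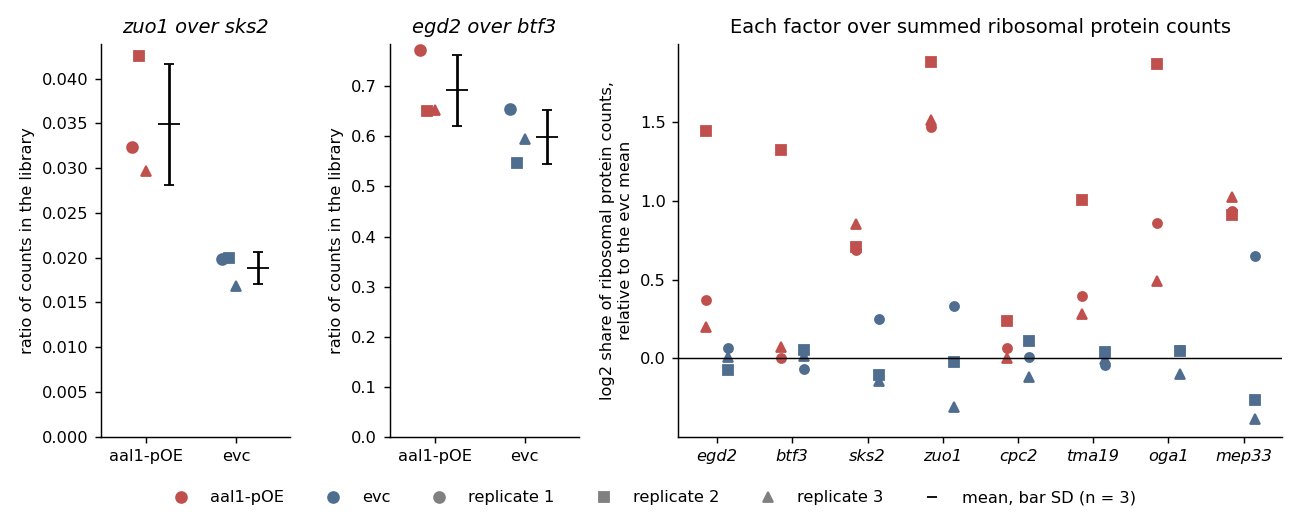
Ratios of counts within each library, aal1-pOE left of evc: zuo1 over sks2, egd2 over btf3 (each with group mean and SD, n = 3), and each of the 8 transcripts over the summed ribosomal protein counts, on a log2 axis relative to the evc mean. The groups separate for zuo1 over sks2, where sks2 was itself lower in aal1-pOE, and overlap for egd2 over btf3. Over the ribosomal protein sum only btf3 and cpc2 overlap between groups, and 89.1% of all genes separate with aal1-pOE higher.

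Cpc2 is the fission yeast RACK1, a propeller-shaped protein of the small ribosomal subunit. Its log2 fold change was the farthest below 0 of the 8. The gene cpc2 (SPAC6B12.15, chromosome I, 2439511 to 2441027, plus strand, 3 exons) had 776.8, 635.1 and 674.6 CPM in the aal1-pOE cultures, against 2041, 4035 and 3468 CPM in evc. Every evc library held more than 2 times the highest aal1-pOE value. The means were 695.5 ± 73.1 CPM in the aal1-pOE cultures, against 3181 ± 1027 CPM in the evc cultures (SD, n = 3 each), a transcript 4.57-fold lower in aal1-pOE (log2 fold change -2.19 ± 0.40, SE, edgeR adjusted p = 0.013). It also fell with library totals (log2 fold change -1.49, edgeR adjusted p = 0.0353), where groups did not overlap either. For 6.29% of all genes, aal1-pOE lay below evc without overlap on that scale.

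Tma19 is the fission yeast TCTP (translationally controlled tumour protein), a small conserved protein found with ribosomes in yeast. The gene tma19 (SPAC1F12.02c, chromosome I, 3809345 to 3810047, minus strand, 1 exon) had 222.0, 245.5 and 186.3 CPM in the aal1-pOE cultures, against 448.2, 873.0 and 853.7 CPM in evc. The lowest evc library was replicate 1, as it was for each of the 8 but mep33. The means were 217.9 ± 29.8 CPM in the aal1-pOE cultures, against 725.0 ± 239.9 CPM in the evc cultures (SD, n = 3 each), with a log2 fold change of -1.73 ± 0.33 (SE, edgeR adjusted p = 0.016).

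Oga1 is annotated by RefSeq as protein stm1. In budding yeast, Stm1 clamps idle ribosomes and preserves them in stationary phase. The gene oga1 (SPBC16A3.08c, chromosome II, 4283929 to 4285456, plus strand, 3 exons) had 268.8, 392.7 and 189.0 CPM in the aal1-pOE cultures, against 420.2, 770.5 and 699.5 CPM in evc. The highest aal1-pOE library, replicate 2, came close to the lowest evc library, replicate 1. The means were 283.5 ± 102.7 CPM in the aal1-pOE cultures, against 630.1 ± 185.2 CPM in the evc cultures (SD, n = 3 each), and the log2 fold change of -1.15 ± 0.36 (SE, 95% interval -1.96 to -0.34) was not called (edgeR adjusted p = 0.0839).

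Mep33, annotated as a translation machinery associated protein, had the smallest adjusted p of the 8. The gene mep33 (SPBC28F2.02, chromosome II, 1574327 to 1575648, plus strand, 1 exon) had 76.0, 54.2 and 73.1 CPM in the aal1-pOE cultures, against 170.2, 165.6 and 153.9 CPM in evc. It was the only one of the 8 in which evc replicate 1 was the highest evc library. The means were 67.8 ± 11.9 CPM in the aal1-pOE cultures, against 163.3 ± 8.4 CPM in the evc cultures (SD, n = 3 each), and the log2 fold change was -1.27 ± 0.22 (SE, edgeR adjusted p = 0.0101).

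The scale mattered for most of these values. With library totals the median log2 fold change of the 8 was -0.78 against 0.80 for all genes, the difference between them being close to that with TMM. Only cpc2 and sks2 were then called lower, where 2.64% of all genes were. Without the TMM factors the groups overlapped for egd2, btf3, zuo1, tma19 and oga1, since aal1-pOE replicate 2 lay within the evc range or above it (for zuo1, replicate 1 of aal1-pOE as well). In CPM of library totals this library had 101.9 for egd2 and 704.7 for oga1, against 69.9 for egd2 and 357.0 for oga1 in evc replicate 1. The groups stayed apart for sks2, cpc2 and mep33.

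**Figure D3:**
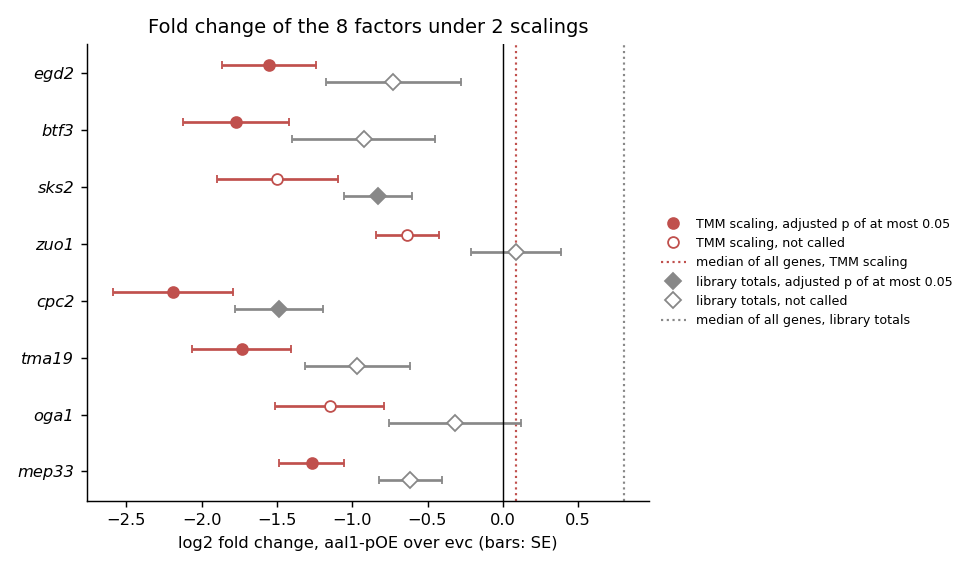
Log2 fold change (aal1-pOE over evc) of the 8 transcripts with TMM scaling and with library totals; bars give 1 SE and dotted lines the median of all genes tested, 0.08 with TMM and 0.80 with library totals. Every value sits below its own dotted line, and zuo1 with library totals is the one value above 0.

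Set against the summed counts of the ribosomal protein genes in the same library, 7 of the 8 transcripts took a share that was at least 1.38 times as high in aal1-pOE as in evc. For btf3 this rested on aal1-pOE replicate 2. Its share was 0.165%, 0.412% and 0.173% in the aal1-pOE libraries, against 0.157%, 0.171% and 0.166% in evc. Without that library the log2 difference of btf3 was 0.04, where it is 0.47 with it. Leaving it out also lowered the log2 difference of egd2 from 0.67 to 0.29, of tma19 from 0.56 to 0.34 and of oga1 from 1.07 to 0.68. For sks2, zuo1 and mep33 the log2 difference was then 0.77, 1.49 and 0.98, against 0.75, 1.62 and 0.96 with all libraries. The share of cpc2 was nearly the same in both groups, with 2.66%, 3.0% and 2.54% of the ribosomal protein sum in the aal1-pOE libraries, against 2.55%, 2.75% and 2.34% in evc. These groups overlapped (fold 1.07, exact permutation test p = 0.5, adjusted p = 0.5). The ratio was highest in aal1-pOE relative to evc for zuo1, whose share of 0.217% ± 0.036 in aal1-pOE was 3.08 times its share of 0.0710% ± 0.0158 in evc (SD, n = 3 each). For oga1 the share was 1.16% ± 0.61 in aal1-pOE and 0.508% ± 0.030 in evc. For sks2 it was 6.25% ± 0.40 in aal1-pOE and 3.74% ± 0.59 in evc. Groups did not overlap for 6 of the 8, each with p = 0.1 (exact permutation test, adjusted p = 0.143). Groups did not overlap, with aal1-pOE above evc, for 89.1% of all genes tested, since the ribosomal protein sum was itself lower in aal1-pOE. The median log2 difference in this ratio was 0.71 for the 8 and 2.28 for all genes, so the 8 lay below the typical gene on this measure.

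Levels per length were compared between the genes in TMM-scaled CPM per kb of spliced transcript. In aal1-pOE the order was sks2 with 756.7 ± 131.1, cpc2 with 651.9 ± 68.6, tma19 with 310.0 ± 42.4, oga1 with 236.7 ± 85.7, btf3 with 105.8 ± 40.8, egd2 with 69.4 ± 23.3, mep33 with 51.3 ± 9.0 and zuo1 with 36.6 ± 1.2 CPM per kb (SD, n = 3). The ranges of neighbours overlapped for sks2 and cpc2, tma19 and oga1, btf3 and egd2, and egd2 and mep33. In evc the order began with cpc2 at 2981 ± 963 CPM per kb, followed by sks2 at 2136 ± 404, with overlapping ranges, and then ran as in aal1-pOE to zuo1 at 56.8 ± 10.3 (SD, n = 3). Among 4911 protein-coding genes, cpc2 ranked 79 in aal1-pOE and 45 in evc, while sks2 ranked 68 in aal1-pOE and 71 in evc. The rank of oga1 was 302 in aal1-pOE and 276 in evc. Larger shifts included those of egd2, to rank 1110 in aal1-pOE from its evc rank of 568, and of mep33, to rank 1497 in aal1-pOE from its evc rank of 808. The rank of zuo1 was 1997 in aal1-pOE and 1485 in evc, and that of btf3 was 727 in aal1-pOE and 346 in evc. For tma19 it was 222 in aal1-pOE and 156 in evc.

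Among other factors that act on the nascent chain or on the ribosome, 3 lists had medians near that of all genes. The first held 10 genes, namely genes for N-terminal processing of new proteins and, beside them, ssz1 as the partner of zuotin. Of these 10, 0 were called, and the median log2 fold change was 0.01. Only 1, ssz1, had an unadjusted p under 0.05 in edgeR. The smallest p values were those of ssz1, above, and of fma2, a methionine aminopeptidase gene (-0.73 ± 0.35, SE, edgeR adjusted p = 0.209). Of 8 genes for the signal recognition particle, which takes secretory proteins to the endoplasmic reticulum, and for its receptor, 0 were called and 1 reached an unadjusted p under 0.05 (edgeR), and their median was 0.15. Their smallest p values were those of srp68 (0.65 ± 0.27, SE, edgeR adjusted p = 0.164) and of the receptor gene SPBC3B9.03 (0.79 ± 0.40, SE, edgeR adjusted p = 0.229). Among 8 other ribosome-bound translation factors 0 were called and 0 had an unadjusted p under 0.05 in edgeR, with a median of -0.02. These included mbf1, a conserved coactivator (-0.70 ± 0.39, SE), and tma23 (0.71 ± 0.47, SE). With library totals the medians of these 3 lists were 0.76, 0.83 and 0.78, near that of all genes.

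Genes of ribosome rescue and quality control, which clear stalled ribosomes and their incomplete chains, had log2 fold changes on both sides of 0. Of 7 genes 0 were called and 2 had an unadjusted p under 0.05 in edgeR, with a median log2 fold change of -0.22 (0.40 with library totals). The 2 were rqc1 at -0.87 ± 0.27 (SE, edgeR adjusted p = 0.0857) and rqc2 at 1.12 ± 0.36 (SE, edgeR adjusted p = 0.0922). Both proteins belong to the ribosome quality control complex. Of 9 other Hsp70 and Hsp40 chaperones 0 were called and 3 reached an unadjusted p under 0.05 (edgeR), and their median was -0.97 (-0.42 with library totals). The smallest p values were those of the mitochondrial Hsp70 gene ssc1 (-1.71 ± 0.49, SE, edgeR adjusted p = 0.0664) and of pss1, a cytosolic Hsp110 relative (-1.59 ± 0.47, SE, edgeR adjusted p = 0.0732).

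Elongation factors, which carry the ribosome along the mRNA, were the list nearest to the 8 by median with TMM scaling. Of 9 genes 4 were called lower and 5 were not called, with a median log2 fold change of -1.73. All 9 values were below 0, and all 9 had an unadjusted p under 0.05 in edgeR. The 4 were the translocation factor genes eft201 (-1.98 ± 0.35, SE) and eft202 (-2.83 ± 0.42, SE), tef101, which encodes the factor that delivers aminoacyl-tRNA (-2.20 ± 0.47, SE), and tif512, an eIF5A gene (-2.62 ± 0.38, SE), with edgeR adjusted p between 0.00682 and 0.0262. Of the 41-base windows of eft201, 86.7% also occur elsewhere in the genome, as do 86.2% of those of eft202 and 69.4% of those of tef101, so the split of reads between such copies is uncertain. Of the 137 ribosomal protein genes 128 fell and 0 rose, with a median of -2.26. With library totals the medians were -1.19 for the elongation factors and -1.57 for the ribosomal proteins. On that scale the other Hsp70 and Hsp40 chaperones, at -0.42, were nearer to the 8, at -0.78, than the elongation factors were. Lower calls were not limited to translation genes. With TMM scaling act1, the actin gene, had a log2 fold change of -1.50 ± 0.37 (SE, edgeR adjusted p = 0.0481). The gene nmt1, which gave the plasmid promoter its name, was at -1.82 ± 0.50 (SE, edgeR adjusted p = 0.0636) and was not called. HomolD stood in the windows of 4 of the 9 elongation factor genes and in 0 of the other 5 lists named above.

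**Figure D4:**
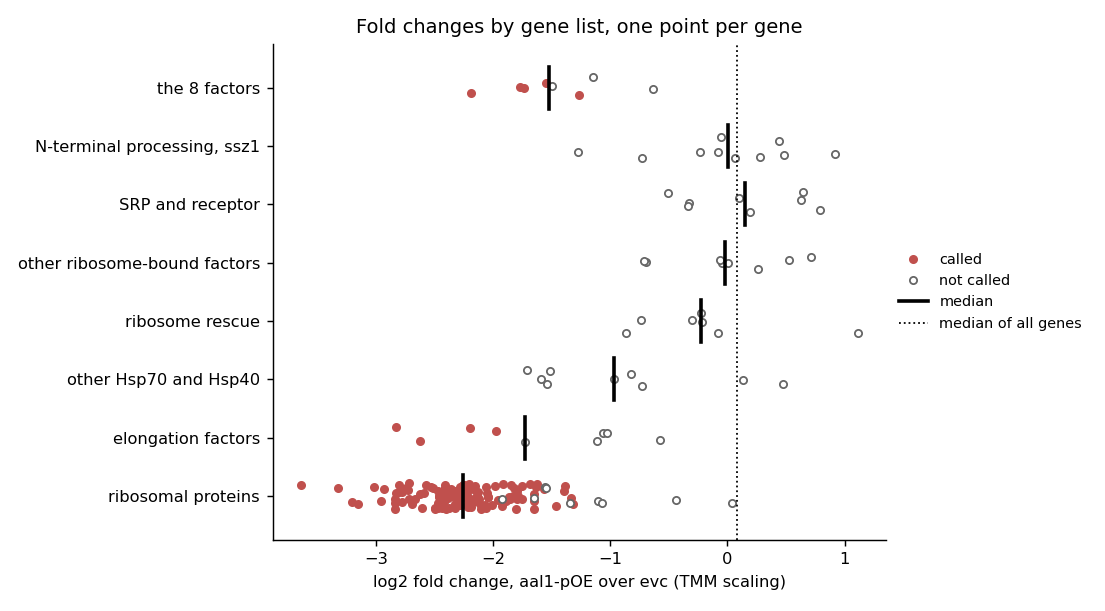
Log2 fold change (aal1-pOE over evc, TMM scaling) of each gene in the 8 ribosome-associated factors and in the other lists; filled points passed an edgeR adjusted p of at most 0.05. The 8 spread from -2.19 to -0.63, between the ribosomal proteins (median -2.26) and the lists with medians near 0.

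The genes whose profile over the 6 libraries was closest to the mean profile of the 8 were sought among the 4585 genes that averaged 10 CPM or more. Likeness was the root mean square difference of log2 CPM centred on each gene's mean, where a small value is alike. The 5 closest were rpl1001 (0.056) and rpl102 (0.088), which encode proteins of the large ribosomal subunit, ilv5 (0.091), an enzyme of branched-chain amino acid synthesis, SPAC57A7.15c (0.095), an uncharacterized protein, and exg1 (0.119), a cell wall glucosidase. Of the 8 themselves tma19 was closest to their mean (0.152) and zuo1 farthest from it (0.441). All libraries share the scaling, and the ranking is a description.

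Other annotated genes overlapped 7 of the 8, all but tma19, although counting used the strand. Overlaps on the same strand were found for 3 genes. The gene mep33 shared 49 bases with the non-coding SPNCRNA.1448, which had 477, 1645 and 202 counts in the aal1-pOE cultures, against 537, 988 and 1008 in evc, and was itself called lower (log2 fold change -1.76 ± 0.39, SE, edgeR adjusted p = 0.0299). Reads within that stretch cannot be told apart. The gene btf3 shared 12 bases with wsp1 (-0.30 ± 0.23, SE, edgeR adjusted p = 0.389), and cpc2 held snoU24b over 83 bases, which had 0 counts in every library. Reads on that stretch of cpc2 lie in both genes, so the 0 does not tell whether the snoRNA was present. On the opposite strand egd2 overlapped hrf1 over 256 bases, and hrf1 had 568, 840 and 405 counts in the aal1-pOE cultures, against 255, 100 and 175 in evc (log2 fold change 0.66 ± 0.32, SE, edgeR adjusted p = 0.211). Opposite btf3, SPNCRNA.1030 spanned all 729 bases with 18 to 106 counts, and opposite cpc2, SPNCRNA.826 covered 562 bases with 7 to 63 counts. Another 5 non-coding genes lay opposite sks2 (53 bases), zuo1 (425 bases), cpc2 (184 bases), oga1 (290 bases) and mep33 (1322 bases). Their identifiers were not in the count table, so they had no counts to compare. None of the 41-base windows of the 8 genes occurred elsewhere in the genome, so no exact copy of such a stretch could share their reads.

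Calls for single genes rested on few cultures. Without evc replicate 2, and also without evc replicate 3, 0 of the 8 were called by edgeR's quasi-likelihood test, with 7 of the 8 at an unadjusted p under 0.05 in one case and 8 in the other. Over all genes 1.40% and 1.49% were then called lower. Without aal1-pOE replicate 1, only mep33 was called, where 2.46% of all genes were called lower. Without aal1-pOE replicate 2, the library with the largest TMM factor, 7 were called, all but zuo1, where 9.09% of all genes were called lower. In each of these fits all 8 log2 fold changes stayed below 0. With other tools and filters the count moved less. DESeq2 size factors, TMM without ribosomal proteins, the replicate block, no filter on low counts and limma-voom each called 5 of the 8, where 4.76%, 4.79%, 6.58%, 3.93% and 4.04% of all genes were called lower, in that order. A filter of 10 CPM called 6 (6.77% of all genes), the likelihood ratio test 7 (8.11%) and DESeq2 7 (8.79%). Leaving out aal1-pOE replicate 3 kept the count at 5 (4.60% of all genes), as did leaving out evc replicate 1 (4.71%). With both aal1-pOE replicate 2 and evc replicate 1 left out, chosen after the data were seen, 8 were called, where 20.2% of all genes were. Over the fit described first and 16 alternatives, cpc2 and mep33 were called lower in 14 of 17, egd2, btf3 and tma19 in 13, sks2 in 6, oga1 in 4 and zuo1 in 1.

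**Figure D5:**
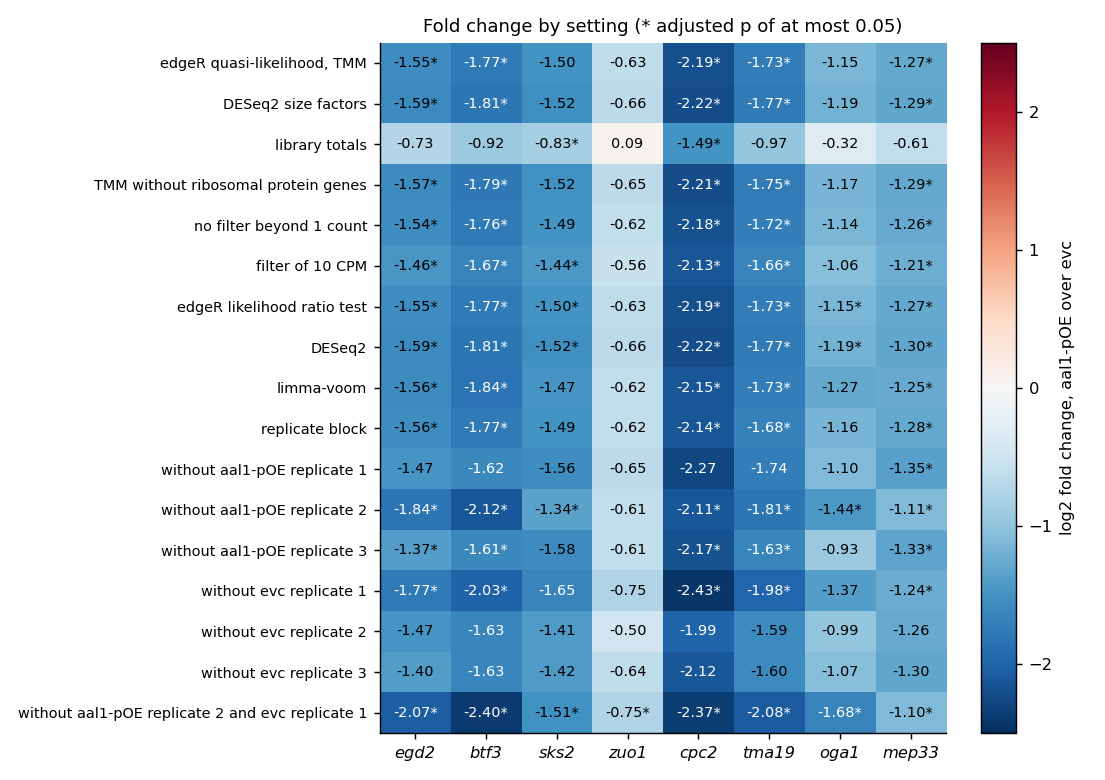
Log2 fold change (aal1-pOE over evc) of the 8 transcripts under 17 fits, with an asterisk at an adjusted p of at most 0.05. Color runs from blue (lower in aal1-pOE) to red (higher); the single value above 0 is zuo1 with library totals, and no gene has an asterisk without evc replicate 2 or without evc replicate 3.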

How the data were processed

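Total RNA was depleted of rRNA and sequenced in strand-specific, molecularly indexed libraries. Per the submitters' processing notes and the study's methods, the authors aligned reads with STAR 2.6.1a to a fission yeast genome (build: not given in the sources used here). Counts per gene were taken on the reverse strand with HTSeq 0.12.3. As deposited, the values were raw read counts, with 1 column per library. The sources used here do not say whether reads sharing a molecular index were collapsed.

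Of 6952 identifiers 6805 matched RefSeq ASM294v3, which gave names and coordinates. A gene had to exceed 1 CPM in at least 3 libraries, which 5823 did. Tests were run in edgeR 4.0.16 (R 4.3.3) by quasi-likelihood, with TMM factors and strain as the only term, with Benjamini-Hochberg adjustment. SE was taken from the log2 fold change and the F statistic (their quotient, with F under a root). The test was tested on simulated data with 5797 genes. It called 98 of 100 genes changed by 2 on the log2 scale and 32 of 99 changed by 1, with 3 false calls. Every simulated gene had the same dispersion, and genes were raised and lowered alike. The simulation thus held neither the shift in composition between these groups nor an outlying library, and its error rates may not hold here. Alternatives were DESeq2 1.42.0 size factors, library totals, TMM without ribosomal proteins, no filter, a filter of 10 CPM, the likelihood ratio test, DESeq2, limma-voom (limma 3.58.1), a block on replicate number (replicate block), and dropping each library in turn.

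The 8 genes and the lists were chosen with earlier results of these data known. Named genes were the 8, the called genes of each list or else the 2 with the smallest p (of the ribosomal proteins only counts are given), the 5 closest profiles, and the control genes aal1 and nmt1. The actin gene was named after its value was seen. One listed symbol, arb1, matched an argonaute inhibitor and was left out. The mating and meiosis list held 1 called gene, ste11, a transcription factor of mating (-1.56 ± 0.31, SE, lower in aal1-pOE), and the dividing-cell list 0 (edgeR, 1 at an unadjusted p under 0.05). A planned comparison of protein sequences was replaced by a search for shared 41-base windows.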

Additional observations from a re-analysis of the deposited data

How the results depend on the processing

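Of the 8 transcripts 5 were called lower. With library totals 2 were called, cpc2 of these 5 and sks2, with -0.78 as the median log2 fold change of the 8 and zuo1 at 0.088. Leaving out each library in turn gave 0 to 7 calls and medians from -1.71 to -1.41. With aal1-pOE replicate 2 and evc replicate 1 both left out, a choice made after the data were seen, 8 were called (median -1.87), where 20.2% of all genes were called lower. Over all genes, 270 lower and 79 higher calls became 154 and 517 with library totals, 472 and 397 with the likelihood ratio test, 512 and 393 with DESeq2, and 235 and 19 with limma-voom. Leaving out each library gave 81 to 518 lower and 1 to 252 higher calls, and leaving out both libraries named above 1131 and 1085.

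With the other protein-coding genes in place of the ribosomal protein sum, the log2 difference was below 0, the ribosomal protein sum being itself lower in aal1-pOE: -1.02 for egd2, -1.22 for btf3, -0.94 for sks2, -0.068 for zuo1, -1.59 for cpc2, -1.13 for tma19, -0.62 for oga1 and -0.73 for mep33.

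Deviations of same-numbered libraries from their group means were hardly correlated (0.0272, 0.019 and 0.00109). Replicates 1 and 2 of aal1-pOE correlated best with the evc library of their own number, and replicate 3 with evc replicate 1 (0.0112). Values this near 0 cannot decide whether the replicate number marks a pairing. With the replicate block 5 of the 8 were called, the same number, and over all genes 383 were lower and 247 higher. Within-pair permutation of the ratios cannot go below p = 0.25. Each of the 8 was counted at least 190 times in every library.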

Other observations

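The HomolD box also stood in the windows of ubi2 and ubi5, which encode ubiquitin fused to ribosomal proteins and are not in the list of 137, and of rpl44, annotated to a ribosomal protein family. Of these 3 only ubi5 was called (log2 fold change -2.38, lower in aal1-pOE). The box stood in the windows of 43 further tested genes. Of these 6 were called lower and 0 higher in aal1-pOE (edgeR), with a median log2 fold change of -0.34. Of 4718 other genes without the box 88 were called lower and 62 higher, with a median of 0.17. The 6 were tef101, rlp7 (-1.61 ± 0.26, SE), a relative of a large-subunit ribosomal protein that acts in ribosome assembly, tif1 (-1.61 ± 0.34, SE), the eIF4A helicase, ilv5 (-1.57 ± 0.33, SE), lrs1 (-1.36 ± 0.33, SE) and sam1 (-1.01 ± 0.24, SE), the S-adenosylmethionine synthetase gene. They were singled out after their values were seen. Among ribosomal protein genes the median was -2.29 in the 87 with it (84 called lower) and -2.23 in the 50 without it (44 called lower).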
